A study of Mus musculus with 20 samples.

Results

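The genes described here are 36 aminoacyl-tRNA synthetases, 20 that encode cytosolic enzymes and 16 that encode mitochondrial ones. They are defined by gene symbol and were taken from the 49315 Ensembl gene identifiers of the count table. All 36 were in the table, and all passed the filter on low counts that left 28082 genes for testing. The 2 classes were followed through 20 RNA-seq libraries of splenic T effector cells, mouse CD4+ T cells sorted without CD25 to a purity above 99%. Control cells (CTL) carried the floxed gene alone (Fl-Pcbp2). Conditional knockout cells (CKO, Fl-Pcbp2/CD4cre) also carried a Cre recombinase driven by Cd4 regulatory sequence, which acts from thymic development onwards in T cells, so a CKO cell had matured without the poly(C)-binding protein Pcbp2. Unstimulated cells (0 h) gave 6 CTL and 6 CKO libraries, and cells held for 6 hours with beads that engage CD3 and CD28 gave 5 CTL and 3 CKO libraries. No group was held for 6 h without beads, so effects of the beads and of the time in culture cannot be told apart. Stimulation stands below for both together. The mice were littermates, and the labels do not say that every library is a separate animal, so a p-value measures the spread between libraries.

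Each synthetase attaches one amino acid to the tRNAs that carry its anticodons, and the loaded tRNA is then used by the ribosome. Most animals keep separate nuclear genes for the cytosol and for the mitochondrion, whose own ribosomes make a few subunits of the respiratory chain. Gars and Kars are exceptions in which 1 gene supplies both compartments, and mitochondrial glutaminyl-tRNA is made by an indirect route that begins with Ears2. Several cytosolic enzymes sit together in the multisynthetase complex, and many cytosolic synthetase genes are known targets of Atf4, the transcription factor of the amino acid response. T cells enlarge and raise protein synthesis before their first division.

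Promoter letters are given first, since the known route from Atf4 to these genes runs through them. RefSeq (GRCm38.p6) promoters, 250 bases before to 50 bases after the start, were matched for 27 of the 36 genes, 13 cytosolic and 14 mitochondrial. The 9 without an entry were Cars, Hars, Lars, Nars, Rars, Vars, Wars, Hars2 and Pars2. The core of the C/EBP-ATF response element, to which Atf4 binds with a C/EBP partner, was searched as TGATGNAA on both strands. It was found in 5 of 13 cytosolic promoters and in 0 of 14 mitochondrial ones, against 3.97% of all 32851 promoters. A match in each of these 5 genes is shown in a window of 30 bases along the gene's strand, with the match in capitals.
Aars, chr8:111033840-111033869, plus strand, match from 9 bases after the start: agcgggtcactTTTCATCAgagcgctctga
Gars, chr6:55037960-55037989, plus strand, match from 30 bases before the start: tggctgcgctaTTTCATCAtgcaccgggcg
Iars, chr13:49682126-49682155, plus strand, match from 7 bases after the start: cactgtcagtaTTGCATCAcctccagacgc
Tars, chr15:11399655-11399684, minus strand, match from 15 bases before the start: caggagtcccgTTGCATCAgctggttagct
Yars, chr4:129189895-129189924, plus strand, match from 3 bases after the start: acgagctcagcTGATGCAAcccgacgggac
The match lay on the gene's own strand in Yars and on the opposite strand in the other 4 genes. An E-box (CACGTG), the site of Myc and related factors, was in 4 of 13 cytosolic promoters (Aars, Farsb, Iars, Tars) and in 1 of 14 mitochondrial ones (Ears2), against 7.15% of all promoters. The NRF1 site GCGCATGCG, named for a regulator of nuclear genes with mitochondrial roles, was in 0 cytosolic and 2 mitochondrial promoters, Vars2 with 2 matches and Wars2 with 1, against 1.75% of all.
Vars2, chr17:35667621-35667650, minus strand, match from 47 bases before the start: agagtcttttaCGCATGCGCctgcgtgtcc
Wars2, chr3:99141015-99141044, plus strand, match from 64 bases before the start: ccagaggacagGCGCATGCGtagtaagcac
A match is a description of letters and not a measured binding site. The motifs did not overlap one another in any member. For the 5 genes with a C/EBP-ATF core, log2 fold changes or their range are given below for 6 h against 0 h in each genotype.

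Library totals ran from 26.4 to 85.6 M counts (M, mega). The lowest was 1 CTL library at 6 h, numbered 4.24, and the next lowest held 62.4 M. Library 4.24 at 6 h also had the lowest share of counts on protein-coding genes, 93.5%. Levels are given as CPM, a gene's count relative to the TMM-scaled total of its library. Pcbp2 was at 261 to 396 CPM in CTL libraries at 0 h and 262 to 348 at 6 h, and at 13.1 to 22.1 and 7.27 to 11.3 CPM in the CKO libraries. By label, the CTL libraries were 3 female and 3 male at 0 h, and 2 female and 3 male at 6 h. The CKO libraries were 6 male at 0 h, and 1 female and 2 male at 6 h. Of the 6 CKO libraries at 0 h, numbers 4.24 and 5.6 held Xist at 1160 and 1350 CPM and almost no Ddx3y. Their sex labels therefore go against the data. The CKO library numbered 5.6 at 6 h was labelled female. The markers of T cells were high throughout: Cd4 had a median of 1150 CPM in CTL and 1400 CPM in CKO cells at 0 h.

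In resting CTL cells the cytosolic class was the more abundant one per length of transcript. On the scale of CPM per kb of exon, the median cytosolic gene stood at 19.4 and the median mitochondrial gene at 6.62. Vars, which loads valine, was the highest cytosolic gene at 38.6 ± 2.97 CPM per kb (SD, n = 6), followed by Sars at 30 ± 3.21 and Gars at 27 ± 3.34. Gars and Nars (26.9 ± 2.53) did not differ beyond their spread. The lowest were Yars at 8.95 ± 0.784, Eprs at 7.53 ± 0.884 and Cars at 7.2 ± 0.685 CPM per kb, of which Eprs and Cars did not differ beyond their spread. Among mitochondrial genes Lars2 was listed at 87.4 ± 37.7 CPM per kb, a value taken up separately below. Tars2 came next at 16.9 ± 1.57 and Hars2 at 15 ± 1.39, and the spreads of these 2 genes met. Fars2 at 2.36 ± 0.22 and Nars2 at 1.99 ± 0.196 CPM per kb were the lowest. The ranges of the classes overlapped: Tars2, Hars2, Vars2 and Iars2 all had means above those of Aars, Yars, Eprs and Cars.

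After 6 h of stimulation CTL cells showed a split between the classes. Wars, the tryptophanyl enzyme of the cytosol, rose 3.81-fold, and 3 further cytosolic genes, Rars, Kars and Eprs, rose by smaller amounts. Of the 16 mitochondrial genes, 9 fell and only Yars2 rose. A gene is called here where the edgeR quasi-likelihood test across all 28082 genes gave an adjusted p below 0.05. Among the 20 cytosolic genes 4 were called higher, 2 lower and 14 were not called, with a median log2 fold change of 0.12. Among the 16 mitochondrial genes 1 was called higher, 9 lower and 6 were not called, with a median of -0.34. Much of the transcriptome moved between 0 h and 6 h: 63.4% of all genes tested were called, 41.6% higher and 21.7% lower, with a median of 0.31. Among the 14189 genes with a mean of at least 1 CPM, where all 36 synthetases lie, 55.9% were called, 16.9% higher and 38.9% lower, with a median of -0.20. Against these genes with a mean of at least 1 CPM, the cytosolic count of 4 in 20 higher lay near the background in this fit. The mitochondrial count of 9 in 16 lower lay above it. This reading changed with the scaling described next.

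The scaling of the libraries sets where 0 lies in this comparison. In a second fit only genes with a mean of at least 1 CPM entered the fit and its scaling. The median of the genes fitted was then 0.03, where genes at that level had a median of -0.20 in the main fit. Of the calls in the second fit 52.9% were higher. In the main fit 16.9% of genes at that level were called higher and 38.9% lower. The cytosolic counts then became 11 higher and 1 lower, and the mitochondrial counts 1 higher and 5 lower. Over all genes of that fit 27.8% were called higher and 24.7% lower, so there the 11 of 20 cytosolic genes lay above the background and the 5 of 16 mitochondrial genes near it. Which class stands out by its count of calls therefore depended on the scaling. The class medians kept their places around the median of genes at that level. They were 0.12 (cytosolic) and -0.34 (mitochondrial) around -0.20 in the main fit, and 0.35 and -0.11 around 0.03 in the second fit. The cytosolic median lay further from that of other genes in both fits. The distance between the class medians, 0.45 on the log2 scale, does not depend on scaling, and it stayed between 0.41 and 0.52 under 30 alternative fits. In bulk samples a fall can come from fewer cells that express a gene or from less RNA per cell, and these cannot be told apart.

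Wars (ENSMUSG00000021266, chr12:108860030-108894174, minus strand) is known as an interferon-induced gene as well as a housekeeping enzyme. In CTL cells at 0 h it ran from 52.6 through a median of 65.2 to 82 CPM. At 6 h the 5 libraries were at 162, 243, 260, 303 and 304 CPM. Every stimulated library was above every resting one, a separation in the same direction seen in 17.3% of all genes tested and in 7.57% of those with a mean of at least 1 CPM. The log2 fold change was 1.93 ± 0.14 (SE, adjusted p = 2.79e-09), and Wars was higher in 5 of 5 pairs of libraries with the same number.

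Rars, the arginyl enzyme of the multisynthetase complex, ran from 47.8 through 50.5 to 60.6 CPM at rest and stood at 54.4, 65, 79.3, 92.9 and 99.4 CPM after stimulation. The groups met only in library 4.24, and the log2 fold change was 0.56 ± 0.14 (adjusted p = 0.00171). Kars, the lysyl enzyme that serves both compartments, went from 78, 99.9 and 124 CPM (lowest, median, highest) to 105, 128, 149, 173 and 186 CPM. Its log2 fold change was 0.54 ± 0.14 (adjusted p = 0.00256), and it was higher in 5 of 5 numbered pairs although the groups overlapped. Eprs, which joins the glutamyl and prolyl enzymes in 1 polypeptide, went from 109, 138 and 154 CPM to 132, 151, 164, 207 and 230 CPM. This was the weakest of the 4 calls, at 0.36 ± 0.15 (adjusted p = 0.0382), and it was higher in 3 of 5 pairs. With the replicate number as a block its adjusted p was 0.0546, and without CTL library 5.6 at 0 h it was 0.208.

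Qars and Sars went the other way. Qars, the glutaminyl enzyme of the complex, ran from 128 through 143 to 156 CPM at rest and stood at 71.4, 107, 107, 108 and 122 CPM after stimulation. All stimulated libraries were below all resting ones, and the log2 fold change was -0.49 ± 0.10 (adjusted p = 0.000253). Sars, the seryl enzyme, ran from 134 through 152 to 181 CPM and then stood at 87.8, 128, 133, 136 and 138 CPM. The groups overlapped by a narrow margin, with a log2 fold change of -0.32 ± 0.11 (adjusted p = 0.0135). The call on Sars depended on scaling: it was -0.24 (adjusted p = 0.0522) with RLE factors and -0.09 (adjusted p = 0.355) when only genes with a mean of at least 1 CPM were fitted. Vars, at -0.43 ± 0.19 (adjusted p = 0.0501), lay just outside the threshold. It was lower in 5 of 5 numbered pairs, and with the replicate number as a block, which the CTL numbers justify, it was called, at -0.49 (adjusted p = 0.0191). The other 13 cytosolic genes lay between -0.23 (Dars) and 0.29 (Gars), and the 5 genes with a C/EBP-ATF core in the promoter were among them, at 0.02 for Aars, 0.29 for Gars, 0.19 for Iars, 0.27 for Tars and -0.06 for Yars. Gars and Tars were called higher with RLE factors (adjusted p of 0.0309 and 0.0441), with DESeq2 (0.0243 and 0.0376) and when only genes with a mean of at least 1 CPM were fitted (0.00275 and 0.00439). Exons of Aars share 15.1% of their length with other genes, mostly Exosc6 on the same strand.

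**Figure D1:**
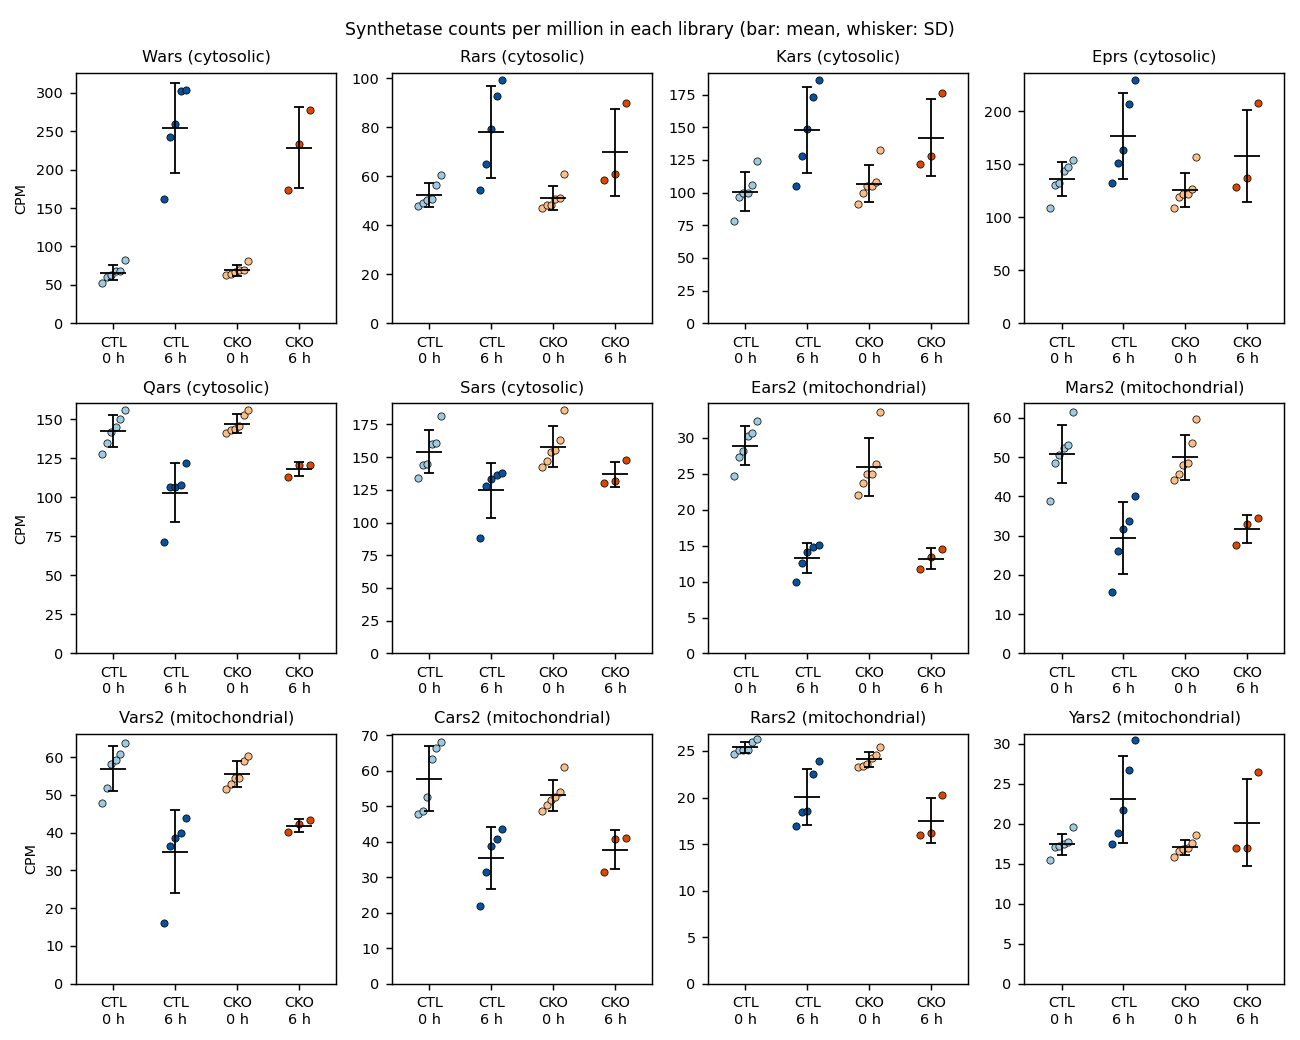
Level in CPM (vertical axis, from 0) of 6 cytosolic and 6 mitochondrial genes in each library of the 4 groups on the horizontal axis (6 CTL and 6 CKO libraries at 0 h, 5 CTL and 3 CKO at 6 h), with the group mean as a bar and the SD as whiskers. Wars at 6 h sits between 162 and 304 CPM in CTL, above every resting library, while Ears2 sits between 9.99 and 15.1 CPM, below every resting library.

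Ears2 (ENSMUSG00000030871, chr7:122037213-122067263, minus strand) showed the largest fall of any member in CTL cells. It loads glutamate in mitochondria and also starts the indirect route to mitochondrial glutaminyl-tRNA. Resting libraries ran from 24.7 through 29.2 to 32.3 CPM, and stimulated ones were at 9.99, 12.6, 14.1, 14.8 and 15.1 CPM. The groups were far apart, with a log2 fold change of -1.15 ± 0.11 (adjusted p = 1.09e-07). A separation of this kind, all stimulated libraries lower, was seen in 12.6% of all genes tested and in 23.1% of those with a mean of at least 1 CPM. It held for 7 of the 16 mitochondrial genes (Aars2, Cars2, Ears2, Hars2, Rars2, Sars2, Vars2) and for 1 of the 20 cytosolic genes (Qars).

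Mars2, the methionyl enzyme, ran from 38.9 through 51.5 to 61.4 CPM at rest and stood at 15.7, 26.2, 31.6, 33.8 and 40.1 CPM at 6 h, so the highest stimulated library passed the lowest resting one. Its log2 fold change was -0.83 ± 0.16 (adjusted p = 0.000266). Vars2, the valyl enzyme, went from 47.7, 58.6 and 63.8 CPM to 16.1, 36.4, 38.5, 39.9 and 43.9 CPM, with no overlap and a log2 fold change of -0.74 ± 0.15 (adjusted p = 0.000389). Cars2, the cysteinyl enzyme, went from 47.8, 58 and 68.2 CPM to 21.9, 31.5, 38.9, 40.7 and 43.6 CPM, again with no overlap, at -0.71 ± 0.15 (adjusted p = 0.000457). These 4 falls remained calls in all 20 fits that left out 1 library. The other 5 genes called lower were Aars2 at -0.58, Hars2 at -0.41, Sars2 at -0.40, Rars2 at -0.35 and Iars2 at -0.33. Exons of Iars2 share 24.2% of their length with other genes, mostly Rab3gap2, and Hars2 shares 195 bases with Hars on the opposite strand. Whether the counting used strand is not given in the sources used here. Reads in these stretches therefore cannot be assigned to 1 gene with certainty.

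Yars2, the tyrosyl enzyme, was the only mitochondrial gene called higher. It went from 15.5, 17.4 and 19.6 CPM to 17.5, 18.9, 21.7, 26.8 and 30.5 CPM, with overlapping groups but a higher value in 5 of 5 numbered pairs. The log2 fold change was 0.40 ± 0.14 (adjusted p = 0.017), and leaving out single libraries took the adjusted p as high as 0.106. The 6 mitochondrial genes not called lay between -0.29 (Pars2) and 0.36 (Lars2).

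**Figure D2:**
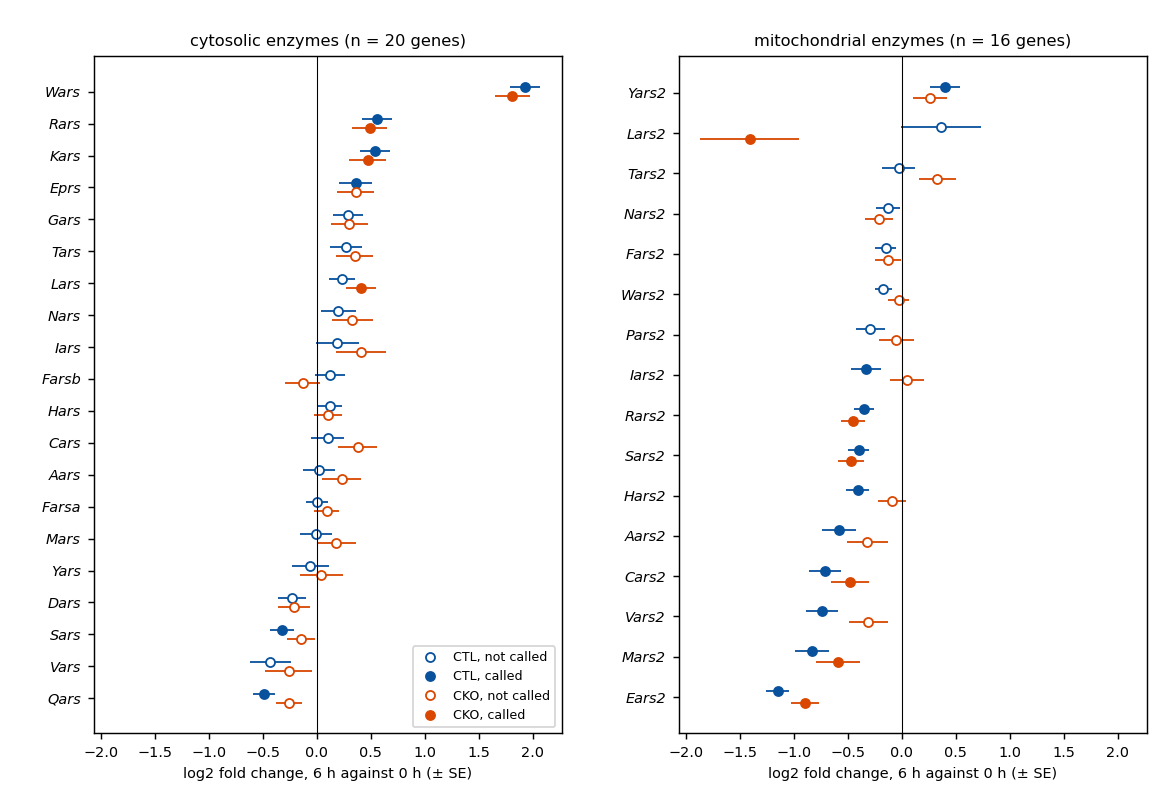
Fitted log2 fold change from 0 h to 6 h (horizontal axis, ± SE) of each cytosolic gene (left) and mitochondrial gene (right), in CTL (blue) and CKO (orange) cells, with filled points where the adjusted p was below 0.05. Wars stands apart on the right at 1.93 and 1.81, and most mitochondrial genes lie left of 0, down to Ears2 at -1.15 and -0.90 and Lars2 in CKO at -1.41.

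Ratios within a library remove the scaling. In each library the median of the 20 cytosolic genes was set against the median of the 16 mitochondrial genes, as log2 CPM per kb. This gap ran from 1.25 through 1.59 to 1.72 in resting CTL cells and was 1.80, 1.92, 1.98, 2.08 and 2.28 in stimulated ones. Each stimulated CTL library thus had a wider gap than each resting one. In CKO cells the gap ran from 1.07 through 1.39 to 1.78 at rest and was 1.70, 1.74 and 2.00 at 6 h. Of the 6 resting CKO libraries, 1 reached into the stimulated range. No test was run on these gaps, since they are a summary over the chosen genes.

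The same was seen amino acid by amino acid. For 13 amino acids the list holds a cytosolic and a mitochondrial gene of their own. In CTL cells the mean log2 ratio of the cytosolic to the mitochondrial gene was higher at 6 h for 12 of 13 pairs, and for 7 pairs (alanine, cysteine, isoleucine, methionine, arginine, valine and tryptophan) no stimulated library overlapped a resting one. In CKO cells the mean was higher for 11 of 13 pairs, and 6 did not overlap (cysteine, leucine, methionine, asparagine, arginine and tryptophan). The leucine pair holds Lars2, whose counts are described below. No share over gene pairs in general was computed, and single genes with a mean of at least 1 CPM already failed to overlap in 7.57% (higher) and 23.1% (lower) of cases in CTL and in 12.4% and 29.6% in CKO cells, so the counts of pairs are a description. The tryptophan pair moved most. Its log2 ratio Wars to Wars2 ran from 2.01 through 2.54 to 2.78 in resting CTL cells and was 3.88, 4.54, 4.61, 4.89 and 5.07 after stimulation, a mean change of 2.10.

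The arginine pair combined a rise in Rars with a fall in Rars2. Its log2 ratio ran from 0.66 through 0.79 to 0.98 at rest and was 1.47, 1.60, 1.82, 1.83 and 1.88 at 6 h in CTL cells, a mean change of 0.90. The cysteine pair showed a mean change of 0.82 in CTL and 0.82 in CKO, in CTL mostly from Cars2. The tyrosine pair was the exception. Its log2 ratio Yars to Yars2 ran from 0.45 through 0.68 to 0.97 at rest and was -0.06, 0.19, 0.31, 0.34 and 0.39 at 6 h, so that all stimulated libraries were lower, by a mean of -0.46. In CKO cells the tyrosine change was -0.27 and the groups overlapped.

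**Figure D3:**
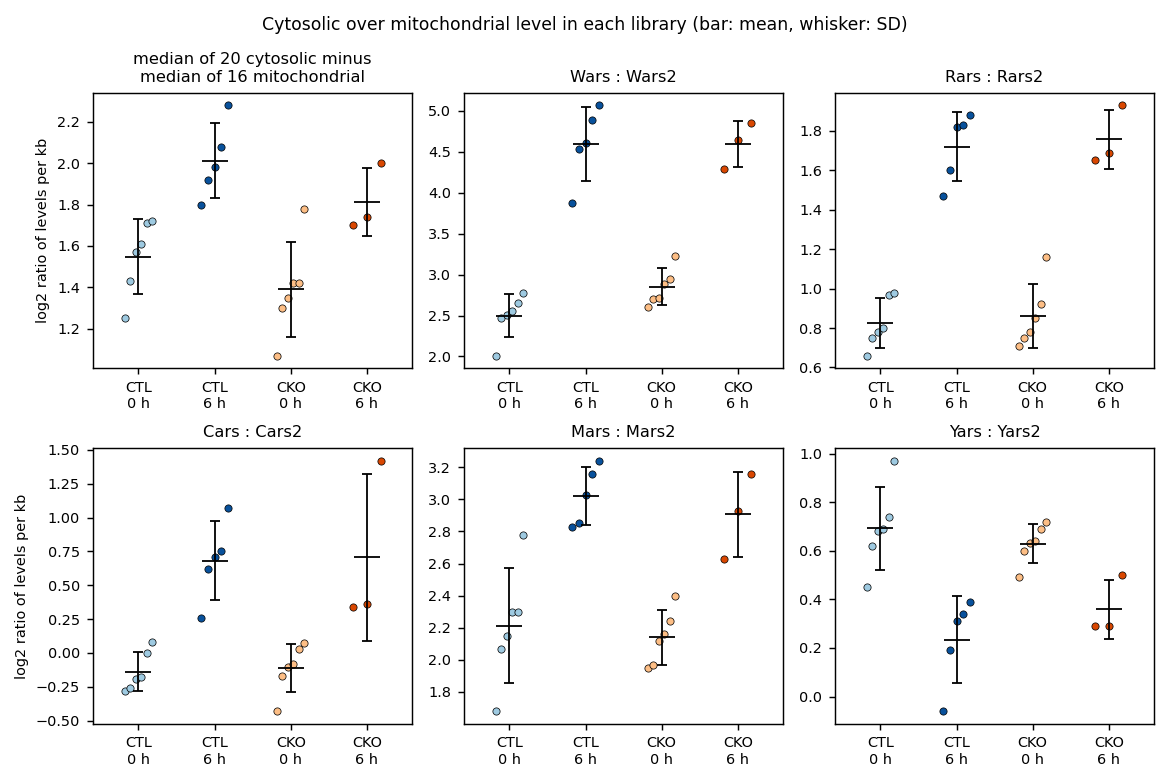
Log2 ratio of cytosolic over mitochondrial level per kb (vertical axes, which do not start at 0) in each library of the 4 groups, for the class medians and for 5 amino acids, with mean bars and SD whiskers. The class gap in stimulated CTL libraries lies between 1.80 and 2.28, above the resting maximum of 1.72, and the tyrosine pair moves down where the others move up.

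Stimulation of CKO cells gave fewer calls, from 3 stimulated libraries. Wars, Rars, Kars and Lars were called higher and no cytosolic gene was called lower. Qars, called lower in CTL cells, was at 141, 145 and 156 CPM (lowest, median, highest) in resting CKO cells and at 113, 121 and 121 CPM at 6 h, with no overlap but an adjusted p of 0.0982 at -0.26. It was called lower in CKO cells with no sex term (adjusted p = 0.045), with sex read from Xist and Ddx3y (0.0308), with the replicate block (0.0342) and with only the groups compared (0.00606). Of the mitochondrial genes 6 fell, Ears2, Sars2, Rars2, Lars2, Mars2 and Cars2, and none was called higher. The cytosolic median was 0.27 and the mitochondrial one -0.26. The background was 32.8% of all genes called, 19.6% higher and 13.1% lower with a median of 0.12, and among genes with a mean of at least 1 CPM 32.9% were called, 10.3% higher and 22.6% lower with a median of -0.12. When only those genes were fitted, the cytosolic counts were 9 higher and the mitochondrial counts 1 higher and 5 lower, against 16.5% of all genes of that fit higher and 17.7% lower. The comparisons in CTL and CKO share no library but come from 1 fit, with a common sex term, scaling and spread per gene. Their calls are therefore not independent. In both, 3 genes were called higher (Kars, Rars, Wars) and 5 lower (Cars2, Ears2, Mars2, Rars2, Sars2). The share of all genes called in both was not computed. The higher calls in both were 3 of 5 in CTL and 3 of 4 in CKO, and the lower calls 5 of 11 in CTL and 5 of 6 in CKO.

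Wars ran from 62.4 through 67.9 to 81.5 CPM in resting CKO cells and stood at 173, 234 and 278 CPM at 6 h. The groups did not overlap, as for 29.9% of all genes tested in this direction and 12.4% of those with a mean of at least 1 CPM, and the log2 fold change was 1.81 ± 0.16 (adjusted p = 9.07e-08). Ears2 ran from 22 through 24.9 to 33.6 CPM and stood at 11.7, 13.4 and 14.5 CPM, at -0.90 ± 0.13 (adjusted p = 5.28e-05). Sars2, the mitochondrial seryl enzyme, went from 23.5, 24.1 and 30.7 CPM to 17, 17.5 and 20.6 CPM, at -0.47 ± 0.12 (adjusted p = 0.0049). These 3 genes were called in all 20 fits that left out 1 library. Rars2, the mitochondrial arginyl enzyme, went from 23.3, 23.9 and 25.4 CPM to 16, 16.2 and 20.3 CPM, at -0.45 ± 0.11 (adjusted p = 0.00513). All stimulated CKO libraries were lower for 8 mitochondrial genes, against 17.1% of all genes tested and 29.6% of those with a mean of at least 1 CPM, and higher for 1, Tars2, which was not called at 0.33 ± 0.17.

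The smaller rises in CKO cells were close to the threshold and depended on single libraries. Rars stood at 58.4, 60.8 and 90 CPM at 6 h, Kars at 122, 128 and 176, and Lars, the leucyl enzyme of the complex, at 89.5, 91.6 and 124. In each case the highest value was library 11.18. All 3 values of Lars lay above the resting maximum of 86.7 CPM. The log2 fold changes were 0.49 ± 0.16 for Rars (adjusted p = 0.0274), 0.47 ± 0.17 for Kars (adjusted p = 0.0362) and 0.41 ± 0.14 for Lars (adjusted p = 0.0372). Without library 11.18 the adjusted p was 0.355 for Rars, 0.308 for Kars and 0.335 for Lars, and the cytosolic median was 0.02. Of the 20 fits that left out 1 library, 6 lost the call on Rars, 9 that on Kars and 8 that on Lars, among them those without CKO libraries 4.29, 5.6 and 9.20 and CTL libraries 5.6 and 9.20 at 0 h. The 5 genes with a C/EBP-ATF core in the promoter lay between 0.04 (Yars) and 0.41 (Iars), none called. Of these, Gars (adjusted p = 0.0387) and Tars (0.0243) were called higher when only genes with a mean of at least 1 CPM were fitted.

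That library was high in the cytosolic class as a whole. Among the 3 stimulated CKO libraries it held the highest value for 19 of 20 cytosolic genes and for 8 of 16 mitochondrial genes. Among the 5 stimulated CTL libraries, number 9.20 held the highest value for 14 of 20 cytosolic genes and number 4.24 the lowest for 20 of 20. The summed level of 5 activation genes (Cd69, Il2, Nr4a1, Irf4, Myc) was 3150 CPM in CKO library 11.18 against 1300 and 1610 in the other CKO libraries. It was 3450 and 3010 CPM in CTL libraries 9.20 and 10.28 and between 1650 and 2400 in the other CTL libraries. The part of activation strength in the spread of the synthetases was not tested. Summed over the class, the cytosolic genes came to 1650 to 2070 CPM in resting CTL cells, 1370 to 2550 in stimulated CTL cells, 1740 to 2120 in resting CKO cells and 1810 to 2690 in stimulated CKO cells.

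No synthetase was called between CKO and CTL cells at either time. At 0 h, 0 of 36 were called, against a background of 0.424% of all genes, and 2 had an unadjusted p below 0.05. The medians were -0.06 for the cytosolic and -0.12 for the mitochondrial genes, and 19 of 20 cytosolic and 13 of 16 mitochondrial log2 fold changes were negative, against 7338 of the 14189 genes with a mean of at least 1 CPM. The cytosolic signs depended on the sex term, which includes the 2 labels that go against the data: 8 of 20 were negative with no sex term and 10 of 20 with sex read from Xist and Ddx3y. For the mitochondrial genes these counts were 11 and 13 of 16. With the replicate number as a block, 8 of 20 cytosolic and 10 of 16 mitochondrial genes were negative. Over all genes tested, 43% were negative in the main fit and 60.2% with no sex term. The share was 55.5% with sex read from Xist and Ddx3y and 57.3% with the block. The plain group means were higher in CKO cells for 12 of 20 cytosolic and 5 of 16 mitochondrial genes. The smallest p belonged to Wars2, the mitochondrial tryptophanyl enzyme. It ran from 18.3 through 19.6 to 22.4 CPM in CTL and from 15 through 16.5 to 17.7 CPM in CKO cells, so the groups did not overlap, as for 0.979% of all genes in this direction. The log2 fold change was -0.29 ± 0.09 (adjusted p = 0.228). DESeq2 gave it an adjusted p of 0.0375 and called no other member. The next was Ears2, at 24.7, 29.2 and 32.3 CPM in CTL against 22, 24.9 and 33.6 in CKO, with overlapping groups and a log2 fold change of -0.27 ± 0.11 (adjusted p = 0.531).

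At 6 h, 0 of 36 were called by edgeR, against 0.292% of all genes, and 2 had an unadjusted p below 0.05. The class medians were -0.00 and 0.09, and the median of all genes was -0.29, or 0.07 among those with a mean of at least 1 CPM. Lars2 came first, at -2.02 ± 0.48 (adjusted p = 0.0975), and DESeq2 called it alone, with an adjusted p of 0.00562. Aars2, the mitochondrial alanyl enzyme, was at 9.68, 22.2, 22.7, 22.8 and 23.2 CPM in CTL and at 25.4, 26.6 and 29 CPM in CKO cells. The groups did not overlap, which was so for 3.65% of all genes in this direction, and the log2 fold change was 0.42 ± 0.18 (adjusted p = 0.38). Apart from Lars2, no member differed between genotypes by more than 0.42 on the log2 scale in these fits.

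The difference between the responses of the genotypes was tested as an interaction. It was called for 0 of 36 members and for 0% of all genes by edgeR, with 1 member at an unadjusted p below 0.05, and DESeq2 called 0 members. The smallest p again belonged to Lars2 (-1.77 ± 0.59, adjusted p = 0.465), followed by Hars2, the mitochondrial histidyl enzyme. Hars2 went from 56.8, 64.3 and 72.6 CPM to 32.9, 50.9, 51.2, 53.1 and 56.3 CPM in CTL cells. In CKO cells it went from 54, 59 and 65.9 CPM to 53.4, 53.8 and 57.3 CPM. Its interaction was 0.32 ± 0.18 (adjusted p = 0.465), and 0.14 without CTL library 4.24 at 6 h, which held the lowest value. Calls in 1 genotype alone, such as those on Qars and Vars2 in CTL, are therefore not shown to differ between the genotypes.

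**Figure D4:**
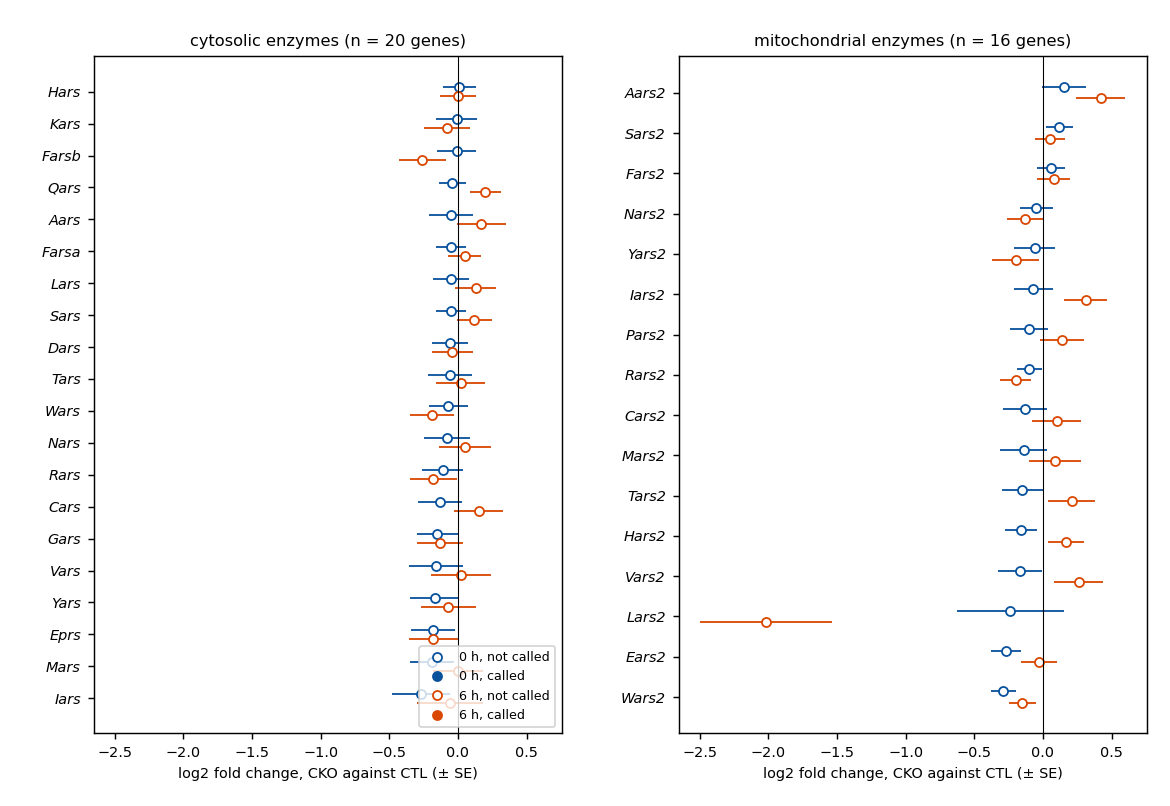
Fitted log2 fold change of CKO against CTL (horizontal axis, ± SE) of each cytosolic gene (left) and mitochondrial gene (right) at 0 h (blue) and 6 h (orange), with open points throughout because none had an adjusted p below 0.05. All genes but Lars2 at 6 h (-2.02) lie within 0.42 of 0.

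Lars2 (ENSMUSG00000035202, chr9:123366927-123462666, plus strand), the mitochondrial leucyl enzyme, did not vary like the rest of its class. It ran from 528 through 862 to 1630 CPM in resting CTL cells and from 455 through 808 to 1020 CPM in resting CKO cells. After stimulation it was at 315, 765, 1270, 1350 and 2370 CPM in CTL and at 265, 281 and 337 CPM in CKO cells. Libraries of 1 group thus differed several-fold, with 1 stimulated CTL library (5.13) inside the range of the CKO libraries. In CKO cells it fell by 1.41 on the log2 scale, with an SE of 0.46 (adjusted p = 0.0254), and the adjusted p reached 0.0915 without CKO library 5.13 at 6 h. In the comparison of genotypes at 6 h, leaving out single libraries took the adjusted p from 0.0122 (without CTL library 5.13 at 6 h) to 0.81 (without CKO library 5.6 at 6 h).

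Across the 20 libraries the levels of Lars2 ran with those of several non-coding transcripts. Of 10338 genes with a mean of at least 5 CPM, the 7 with the highest Pearson correlation with Lars2 were Gm23935 (r = 0.99), Mir6236 (0.98), Gm24270 (0.98), Gm15564 (0.97), Gm24187 (0.95), Gm42418 (0.93) and Gm26917 (0.89). The list was ended at 7 genes, and the next had an r of 0.88. These values describe 20 libraries that share groups and scaling, and they carry no test. Gm42418, known to overlap a ribosomal RNA repeat, was at 962 to 5380 CPM in stimulated CTL libraries and at 855 to 1100 CPM in stimulated CKO ones. The transcript of Gm15564 shares a run of 52 identical bases with Lars2 transcripts. For each of the other genes in this list the longest identical run was 8 to 13 bases, with 8 for Gm23935, which had the highest r. The part of ribosomal RNA or shared sequence in the Lars2 counts was not tested. For the other 35 synthetases the correlation with Gm42418 lay between -0.39 (Tars2) and 0.56 (Rars2).

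Lars2 also set the summed level of the mitochondrial class. With it the class summed to medians of 1470 CPM in resting CTL, 1440 in resting CKO, 1580 in stimulated CTL and 814 in stimulated CKO cells. Without it the medians were 624, 592, 525 and 540 CPM. The stimulated libraries of both genotypes then lay below the resting ones, at 310 to 558 CPM in CTL and 530 to 548 in CKO, against resting minima of 575 and 579.

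**Figure D5:**
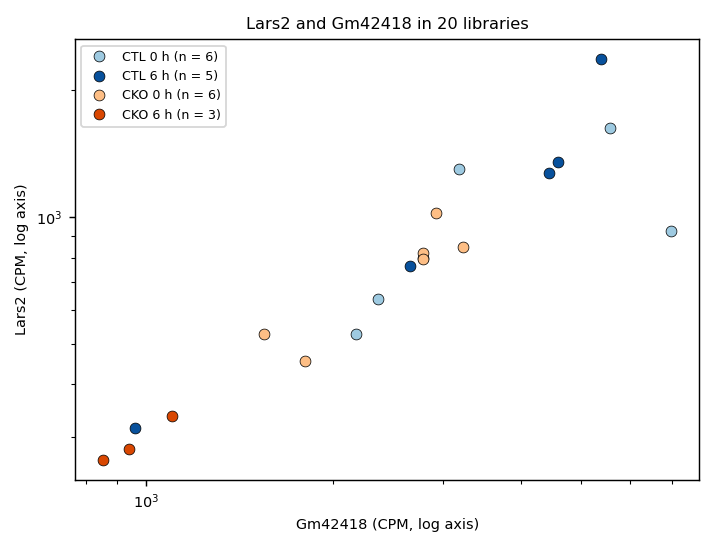
Lars2 (vertical log axis, CPM) against Gm42418 (horizontal log axis, CPM) in the 20 libraries, coloured by group. The 3 stimulated CKO libraries sit at the lower left, between 855 and 1100 CPM of Gm42418, beside CTL library 5.13 at 962 CPM.

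Groups of enzymes defined by structure were counted in the same way. The shares of all genes with a mean of at least 1 CPM to set beside the counts in this paragraph and the next are 16.9% higher and 38.9% lower in CTL and 10.3% higher and 22.6% lower in CKO cells. Of the 8 members of the multisynthetase complex (Dars, Eprs, Iars, Kars, Lars, Mars, Qars, Rars), 3 rose and 1 fell in CTL cells, with a median of 0.21, and 3 rose in CKO cells, with a median of 0.39. The 12 other cytosolic genes had 1 called higher and 1 lower in CTL, with a median of 0.11, and 1 higher in CKO, with a median of 0.17. By fold of the catalytic domain, the mitochondrial class I enzymes had 6 of 9 called lower and the class II enzymes 3 of 7 in CTL cells, with medians of -0.35 and -0.29. Cytosolic class I and class II enzymes had medians of 0.10 and 0.12 in CTL cells.

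Partner genes of the synthetases were counted from lists chosen by function, each of 4 genes or fewer, so their counts are a description. Of 3 scaffold proteins of the multisynthetase complex, Eef1e1 alone was called higher, at 1.08 ± 0.23 in CTL (adjusted p = 0.000414) and 0.76 ± 0.26 in CKO cells (adjusted p = 0.0324). In CTL cells it went from 16.6, 18.6 and 21.7 CPM to 21.6, 29.6, 36.7, 50.7 and 60.5 CPM, with the groups just meeting. Of 4 genes for mitochondrial glutaminyl- and formylmethionyl-tRNA (Gatb, Gatc, Qrsl1, Mtfmt), 3 fell in CTL, led by Qrsl1 at -0.49 ± 0.11 (adjusted p = 0.000627), and Qrsl1 alone fell in CKO cells, at -0.41 ± 0.13 (adjusted p = 0.0209). Both genes of selenocysteine synthesis on its tRNA fell in each genotype, Sepsecs by 0.81 in CTL and by 0.65 in CKO cells, and Pstk, 58.8% of whose exon length is shared with Ikzf5, by 0.41 and by 0.47. Of 4 editing and deacylase genes 2 fell in each genotype, with Dtd1 called in each, at -0.36 and -0.44. Trnt1, which adds the CCA end of tRNA, rose by 0.32 ± 0.09 in CTL and 0.31 ± 0.11 in CKO cells.

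Few of the elongation factors that handle the loaded tRNA were called. Among genes with a mean of at least 1 CPM the share called was 55.9% in CTL and 32.9% in CKO cells. None of 5 cytosolic factors was called in either genotype, with medians of -0.10 and -0.01, and the most abundant, Eef1a1, had medians of 9270 CPM at rest and 8260 CPM at 6 h in CTL cells. Of 4 mitochondrial factors Gfm2 alone fell, in CTL cells, at -0.39 ± 0.09 (adjusted p = 0.000694). Tarsl2, a cytosolic relative of Tars outside the 36, fell by 0.55 in CKO cells (adjusted p = 0.0185).

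The amino acid response, the pathway that acts through Atf4, was counted over 12 genes. In CTL cells 5 rose and 2 fell: Asns, the asparagine synthetase, rose by 2.17 ± 0.34 (adjusted p = 3.18e-05) and Trib3, a pseudokinase induced by Atf4, rose by 0.91 ± 0.16 (adjusted p = 0.000105), with Chac1, Sesn2 and Atf4 itself also higher and Ddit3 and Eif2ak4 lower. In CKO cells the same 5 rose and none fell. In CTL the count of 5 in 12 lies at the share of all genes tested that were called higher (41.6%), with 21.7% lower. In CKO the shares of all genes tested were 19.6% higher and 13.1% lower. Among genes with a mean of at least 1 CPM they were 16.9% higher and 38.9% lower in CTL, and 10.3% and 22.6% in CKO. The 5 in 12 higher lies above these last shares in both genotypes. In CTL its standing therefore depends on the background chosen. Asns remained scarce, at 0.488 to 1.14 CPM in resting and 2.06 to 6.09 CPM in stimulated CTL cells. Trib3 was the only one of the 12 called between genotypes. It stood at 8.26, 8.98, 9.11, 11.2 and 11.9 CPM in CTL and at 20.8, 21.4 and 22.8 CPM in CKO cells at 6 h, at 1.13 ± 0.19 (adjusted p = 0.0104). No synthetase was called beside it.

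Markers of other cell types changed with stimulation and stand beside these results. The shares to set beside the counts are 41.6% higher and 21.7% lower of all genes tested in CTL, and 19.6% and 13.1% in CKO. Among genes with a mean of at least 1 CPM they are 16.9% and 38.9% in CTL, and 10.3% and 22.6% in CKO. In CTL cells 7 of 7 B cell markers fell, with a summed level of 58.3 to 334 CPM at 0 h and 16.4 to 34.9 at 6 h, and 6 of 9 myeloid markers fell, from 36.4 to 138 CPM down to 9.52 to 23.2 CPM. In CKO cells 5 of 7 and 6 of 9 fell, with summed B cell levels of 47.5 to 215 CPM and then 20.4 to 84.2, and summed myeloid levels of 47.9 to 136 CPM and then 11.2 to 46.5. Lyz2, a myeloid marker, was above 0 in each group, with a median of 10 CPM in resting CTL cells. Both CD8 T cell markers fell in each genotype, as did 1 of 4 NK cell markers in CTL and 3 of 4 in CKO cells and 2 of 5 erythroid markers in each. Of 3 platelet markers 2 rose in each genotype, and the most abundant of these, Itga2b, was at 3.27 to 6.33 CPM in resting and 4.53 to 10.8 CPM in stimulated CTL cells. The T cell identity genes fell as well, in 7 of 7 cases in CTL and 6 of 7 in CKO cells, and the 5 activation genes rose in both. Their part in the fall of the mitochondrial synthetases was not tested. The share of counts from the mitochondrial genome was 1.23% to 2.92% in resting and 1.05% to 2.02% in stimulated CTL cells. RNA integrity numbers are given for the series as 5.0 to 8.7 and not per library, so their part was not tested either.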

How the data were processed

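RNA was made into stranded TruSeq mRNA libraries and sequenced in pairs. The build GRCm38 and the tools STAR 2.5.2b, Subread 1.5.2 with featureCounts, and Trimmomatic 0.36 come from the submitters' processing notes, which state neither roles nor settings. The authors deposited raw counts per Ensembl gene for 20 libraries. Symbols, coordinates and exon lengths came from GENCODE M21 (49056 of 49315 identifiers matched). Groups came from the titles. No 2 libraries were copies (chi-square per degree of freedom 21.5 or more over 43 pairs within groups).

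Counts were tested with edgeR 4.0.16 (R 4.3.3) quasi-likelihood fits: filterByExpr (minimum count 10, minimum total 15), TMM, 4 groups plus the labelled sex, all 20 libraries, robust, two-sided p adjusted by Benjamini-Hochberg over 28082 genes with a threshold of 0.05. The fit was also run on simulated data in which a small part of the genes changed, in both directions. That setting does not show how the fit behaves when much of the transcriptome moves, and its outcome is not given here. CPM used the TMM-scaled totals, and CPM per kb the union of exons. Alternatives were RLE factors, no filter, a mean CPM of at least 1, no sex term, sex read from Xist and Ddx3y, the replicate number as a block, only the groups compared, DESeq2 1.42.0 and leaving out each library. Same-numbered libraries deviated together between CTL at 0 h and CKO at 0 h (r 0.24 to 0.70, 5 pairs) and between CTL at 0 h and 6 h (0.25 to 0.53, 5 pairs), but not in all of the 3 CKO pairs (0.09 to 0.51).

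The members and lists were chosen with earlier results of these data known. Genes named with values per library are the called members with the smallest adjusted p of each class and direction (up to 6 cytosolic and 4 mitochondrial higher, 4 of each lower), or the 2 smallest p where none was called, and the highest and lowest per length. Vars, the pairs and the libraries described singly were chosen after their values were seen. Promoters came from RefSeq, and motif letters were searched on both strands. A few items are not reported here.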

Additional observations from a re-analysis of the deposited data

Results flagged for a closer look

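Dixon's 95% criterion was applied within groups of 5 or 6 libraries to 108 sets of values (36 genes in 3 groups). For a single set chance passes it in about 1 of 20 cases. The 36 genes share their libraries, so the sets are not independent and this rate is no test of their number. In 14 of the 108 sets 1 library was set apart from the others by more than the criterion allows. Of these, 8 were the lowest value in CTL library 4.24 at 6 h, the library of lowest depth: Aars at 52.8 CPM, Sars at 87.8, Vars at 68.1, Aars2 at 9.68, Hars2 at 32.9, Iars2 at 39, Pars2 at 6.06 and Vars2 at 16.1. In the same group the nearest values were 100 CPM for Aars, 172 for Vars and 22.2 for Aars2. A further 5 were the highest value in CKO library 5.13 at 0 h: Farsb at 62.6 CPM, Gars at 97, Hars at 74.1, Rars at 60.9 and Ears2 at 33.6. The last was Sars2 at 30.7 CPM in CKO library 5.6 at 0 h.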

How the results depend on the processing

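The log2 fold changes of the members named by smallest p kept their sign under every alternative. Class medians did not always: the cytosolic median of the interaction was 0.10 in the main fit and -0.16 without CKO library 11.18 at 6 h. The distance between the class medians stayed at 0.41 to 0.52 in CTL and 0.32 to 0.62 in CKO (lowest without CKO library 11.18 at 6 h). Counts of calls moved with the scaling, and the cause was not tested. In CTL, cytosolic genes called higher numbered 7 with RLE factors, 7 with DESeq2 and 11 with a mean CPM of at least 1, and those called lower 1 with RLE factors and 1 with a mean CPM of at least 1, which also gave 5 mitochondrial genes lower and class medians of 0.35 and -0.11. In CKO, cytosolic genes called higher numbered 2 with no filter, 9 with a mean CPM of at least 1, 2 with no sex term and 1 with the replicate block (Rars, Kars and Lars then had adjusted p of 0.0702, 0.0545 and 0.0889, and the 3 same-numbered CKO pairs correlated at 0.09 to 0.51). There, 1 was lower with no sex term, with sex read from Xist, with the replicate block and with only the groups compared, and 1 mitochondrial gene was higher with a mean CPM of at least 1. With the replicate block, which the numbers justify for CTL, Eprs was not called in CTL (adjusted p = 0.0546), Vars was (adjusted p = 0.0191), and the other named CTL calls were kept. Without CKO libraries 4.24 and 5.6 at 0 h, chosen after seeing the data, Yars2 was not called in CTL (0 mitochondrial genes higher), and in CKO 1 cytosolic gene was higher and 3 mitochondrial genes lower. Without CTL library 4.24 at 6 h, with a mean CPM of at least 1 and sex read from Xist, also chosen after seeing the data, CTL had 15 cytosolic genes higher and 1 lower, 2 mitochondrial genes higher and 4 lower, and medians of 0.42 and -0.04. CKO then had 11 cytosolic genes higher and 1 lower and 3 mitochondrial genes higher, the interaction medians were -0.14 and -0.02, and Wars2 was called at 0 h (1 member, adjusted p = 0.0213). DESeq2 called 1 member at 0 h (Wars2) and 1 at 6 h (Lars2), and a mean CPM of at least 1 gave 1 at 6 h (Lars2, adjusted p = 0.0492). Leaving out 1 library at a time gave, in CTL, 3 to 9 cytosolic genes higher (9 without CTL 4.24 at 6 h), 2 to 4 lower (4 without CTL 9.20 at 0 h), 0 to 1 mitochondrial higher, 8 to 12 lower, and medians of -0.01 to 0.23 and -0.43 to -0.23. In CKO it gave 1 to 4 cytosolic genes higher, 0 to 1 lower, 0 to 1 mitochondrial higher, 2 to 8 lower (2 without CKO 5.13 at 6 h), and medians of 0.02 to 0.40 and -0.33 to -0.22. Between genotypes it gave 0 to 0 members at 0 h, 0 to 1 at 6 h (Lars2 without CTL 5.13), and 0 for the interaction, whose medians ran from -0.16 to 0.27 and 0.03 to 0.30. The CKO comparison rests on 3 stimulated libraries, and its standard errors ran from 0.10 to 0.46 on the log2 scale.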
